A study of Homo sapiens with 7 samples.

Results

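The genes for the subunits of neurotransmitter-gated ion channels were placed against domains of the repressive histone marks H3K9me3 and H3K27me3 in a colon cancer cell line. Members were the autosomal protein-coding genes of GENCODE 44 (hg38) whose symbols consist of GABRA, GABRB, GABRG, GABRR, GLRA, GRIA, GRID, GRIK, GRIN, CHRNA or CHRNB and a number, with at most 1 trailing letter. This rule, by symbol alone, gave 46 of 19111 autosomal protein-coding genes. They comprised 14 subunits of GABA-A receptors, 2 of glycine receptors, 17 of ionotropic glutamate receptors (3 AMPA, 2 delta, 5 kainate and 7 NMDA) and 13 of nicotinic acetylcholine receptors. Of the GABA-A genes, 13 lay in GABR clusters, which are runs of neighbouring genes on chromosomes 4, 5, 15 and 6.

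The cells were HCT116, an established line of human colorectal carcinoma epithelial cells, carrying an shRNA against UHRF1 that doxycycline induces. Clone 3 and Clone 6 are each 1 clonally expanded line, and both were kept for 14 days with no doxycycline, so the shRNA was not induced in any sample. The 7 ChIP-seq samples were 2 of H3K9me3 in Clone 3, 2 of H3K27me3 in the same clone with 1 input, and 2 of H3K27me3 in Clone 6. No Clone 6 sample of H3K9me3 was analysed here, and that mark in Clone 6 bears on the results solely as part of the clone-shared domains.

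The data were 5 sets of broad domains, in which immunoprecipitated chromatin was enriched over input. The 1 input among the samples was of Clone 3, with none of Clone 6. The sets were 567 domains for Clone 3 H3K9me3 (median length 140 kb), 478 for clone-shared H3K9me3 (148 kb), 2600 for Clone 3 H3K27me3 (58 kb), 1959 for Clone 6 H3K27me3 (78 kb) and 1844 for clone-shared H3K27me3 (68 kb). Each set holds what the replicates shared, so a gene is either in or out of a domain and carries no replicate error. The 2 clone-shared sets are derived from the clone sets and are not independent of them. Domains report the position of a mark and not the level of a transcript.

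GABA-A and glycine receptors are chloride channels that inhibit neurons, ionotropic glutamate receptors are cation channels that carry most fast excitation in the brain, and nicotinic receptors are cation channels opened by acetylcholine in muscle, ganglia and brain. H3K9me3 marks constitutive heterochromatin, and H3K27me3 is deposited by Polycomb repressive complexes, often at genes of other lineages. Most of these subunits are known from neurons and muscle rather than from colon epithelium. None of 14 epithelial and colorectal marker genes, EPCAM, CDH1 and KRT8 among them, had its start site or any of its body in a domain of the 5 sets, and 84.6% of all autosomal genes also had no part of their body in one. Among 10 autosomal neuronal markers, the start sites of 3 lay in Clone 3 H3K27me3 domains and of 4 in Clone 6 H3K27me3 domains (30.0% and 40.0%, against 6.49% and 7.98% of all genes), with NEFL and NEFM, which encode neurofilament subunits, in both. Of 8 mesenchymal markers, no start site lay in a domain, and 1 gene body touched H3K27me3 in each of the 3 sets of that mark, where 8.70%, 10.3% and 7.19% of all genes did in Clone 3, Clone 6 and the clone-shared set, so these counts are near the share of all genes.

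The 4 genes of the chromosome 4 cluster, GABRG1, GABRA2, GABRA4 and GABRB1, lie along chr4:46035769-47426447, and their promoters are shown because the edge of the H3K9me3 domain falls between the alternative starts of GABRB1. Sequences are from RefSeq (GRCh38.p14), read 5′ to 3′, cut to at most 150 bases before a start site that hold no exon of a protein-coding gene, with each CpG in capitals.
GABRG1, chr4:46124055-46124204, minus strand: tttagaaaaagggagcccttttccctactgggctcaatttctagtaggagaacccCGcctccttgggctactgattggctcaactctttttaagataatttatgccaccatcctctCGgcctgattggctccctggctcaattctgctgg
GABRA2, chr4:46390405-46390550, minus strand: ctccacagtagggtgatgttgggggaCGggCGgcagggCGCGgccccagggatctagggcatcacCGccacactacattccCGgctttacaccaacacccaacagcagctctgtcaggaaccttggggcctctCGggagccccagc
GABRA4, chr4:46993582-46993722, minus strand: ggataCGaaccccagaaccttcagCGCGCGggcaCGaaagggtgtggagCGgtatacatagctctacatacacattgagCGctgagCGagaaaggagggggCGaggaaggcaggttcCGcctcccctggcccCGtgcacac
GABRB1, chr4:47031401-47031550, plus strand: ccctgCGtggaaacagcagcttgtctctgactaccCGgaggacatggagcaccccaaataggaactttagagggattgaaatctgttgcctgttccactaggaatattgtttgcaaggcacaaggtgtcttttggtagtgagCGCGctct
The first 3 stretches lay within H3K9me3 domains of Clone 3 and of the clone-shared set, and the GABRB1 stretch lay in no domain. The GABRA4 stretch is the whole interval of 141 bp that separates the GENCODE starts of GABRA4 and GABRB1, which are transcribed away from each other. It therefore also precedes the longest form of GABRB1, whereas the printed GABRB1 stretch precedes the RefSeq start 37.8 kb further into that gene. The shared interval held 11 CpGs (7.8 per 100 bases), GABRA2 7 (4.79 per 100), GABRB1 4 (2.67 per 100) and GABRG1 2 (1.33 per 100).

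On chromosomes 5 and 15 the table held promoters of GABRB2, GABRA6 and GABRG3, shown here because their starts lie inside H3K9me3 domains and their CpG content lies far apart.
GABRB2, chr5:161546797-161546888, minus strand: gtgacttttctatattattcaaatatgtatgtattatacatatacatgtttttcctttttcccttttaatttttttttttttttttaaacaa
GABRA6, chr5:161685549-161685698, plus strand: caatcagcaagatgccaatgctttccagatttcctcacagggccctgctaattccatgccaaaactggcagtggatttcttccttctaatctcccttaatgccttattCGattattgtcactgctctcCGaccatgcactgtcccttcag
GABRG3, chr15:26971031-26971180, plus strand: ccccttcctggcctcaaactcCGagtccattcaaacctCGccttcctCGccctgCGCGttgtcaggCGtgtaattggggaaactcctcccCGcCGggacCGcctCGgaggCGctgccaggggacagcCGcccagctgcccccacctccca
GABRB2 had no CpG in its 92 bases (17.4% GC), GABRA6 had 2 in 150 bases and GABRG3 had 12 in 150 bases (8 per 100). The GABRB2 stretch ends 71 bases before its RefSeq start, and its count does not describe the wider promoter. In 1 kb around its GENCODE start, GABRB2 had 48.0 CpGs per kb and 55.8% GC. The density around its canonical start was lower, but CpGs were present there too. The stretch of GABRA6 precedes a RefSeq start 139 kb inside the GENCODE gene, and it lay in the Clone 3 H3K9me3 domain but outside the clone-shared one. The other 2 stretches lay in both. Over 20584 RefSeq promoters of autosomal protein-coding genes, the 150 bases directly before the start held a median of 7.33 CpGs per 100, and 5.9% held none. Some stretches printed above end short of the start, by 104 bases at most (GABRA2), so these densities are given side by side only. The sequence of GABRA5 is not shown.

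H3K9me3 domains held the start sites of 10 of the 46 genes (21.7%), against 3.50% of all autosomal protein-coding genes in the Clone 3 set and 3.39% in the clone-shared set. The same 10 genes were in both sets, among them GABRG1, GABRA2, GABRA4, GABRB1, GABRB2, GABRA6, GABRA5, GABRG3 and the kainate receptor gene GRIK1. These starts fell in 4 domains of Clone 3 and 5 of the clone-shared set, so the genes of a cluster are not separate observations. Of the 11 genes in the clusters of chromosomes 4, 5 and 15, 9 had a start site in H3K9me3 (81.8%), whereas 1 of the other 35 members did (2.86%), which is near the share of all genes. These 35 include the 2 genes of the chromosome 6 cluster, GABRR1 and GABRR2, neither of which had a start in H3K9me3. Gene bodies gave the same count of 10 members touching an H3K9me3 domain, against 4.08% of all genes in Clone 3 and 3.90% in the clone-shared set. Of these, 8 lay wholly inside a domain in Clone 3 (17.4%, against 2.96% of all genes) and 7 in the clone-shared set (15.2%, against 2.88%).

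H3K27me3 held the start sites of 4 members in Clone 3 (8.70%, against 6.49% of all genes), 5 in Clone 6 (10.9%, against 7.98%) and 4 in the clone-shared set (8.70%, against 5.35%). These were GRIK3, GLRA1, GRIA1 and GRIN3A in both clones and GRIN2A in Clone 6. Each is a glutamate receptor gene except GLRA1, and none lies in a GABR cluster. With so few genes, these counts are near the share of all genes, as is 0 of the 11 cluster genes on chromosomes 4, 5 and 15. Gene bodies touched H3K27me3 in 8 members in Clone 3 (17.4%, against 8.70% of all genes), 8 in Clone 6 (17.4%, against 10.3%) and 7 in the clone-shared set (15.2%, against 7.19%). By length in Clone 3, 5 of 12 members of at least 300 kb touched the mark, against 34.3% of all genes of that length. From 100 to 300 kb, 3 of 11 did, against 13.4%. None of 16 members from 25 to 100 kb did, against 5.55%, and none of 7 shorter members, against 7.35%. The part of length in these counts was not tested. By bases, H3K9me3 covered 20.3% of the members' bodies in Clone 3 and 8.3% of all gene bodies. This was 74.5% for the 11 cluster genes of chromosomes 4, 5 and 15 and 2.93% for the other 35 members, below the value of all genes. H3K27me3 covered 16.1% of the members' bodies in Clone 3 and 16.3% in Clone 6, against 11.7% and 11.4%. Whole gene bodies lay in H3K27me3 for 2 members in Clone 3 (GRIK3 and GRIA1; 4.35%, against 4.73% of all genes) and 3 in Clone 6 (also GRIN2A; 6.52%, against 5.70%), which is near the share of all genes.

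No member had its start site in domains of both marks, which was also rare among all genes (11 genes, 0.0576%). In all, 15 members (32.6%) had a start site in a domain of at least 1 set, against 12.6% of all genes. They were 9 of the 11 cluster genes of chromosomes 4, 5 and 15 (81.8%) and 6 of the other 35 members (17.1%). The start sites of 31 members (67.4%, against 87.4% of all genes) were in no domain of any set, and 29 of those genes also had no part of their body in one (63.0% of members, against 84.6% of all genes). In Clone 3 both marks touched the body of 2 members, GABRB1 and GRIK1, whereas 83 of all genes (0.434%) were so covered.

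**Figure D1:**
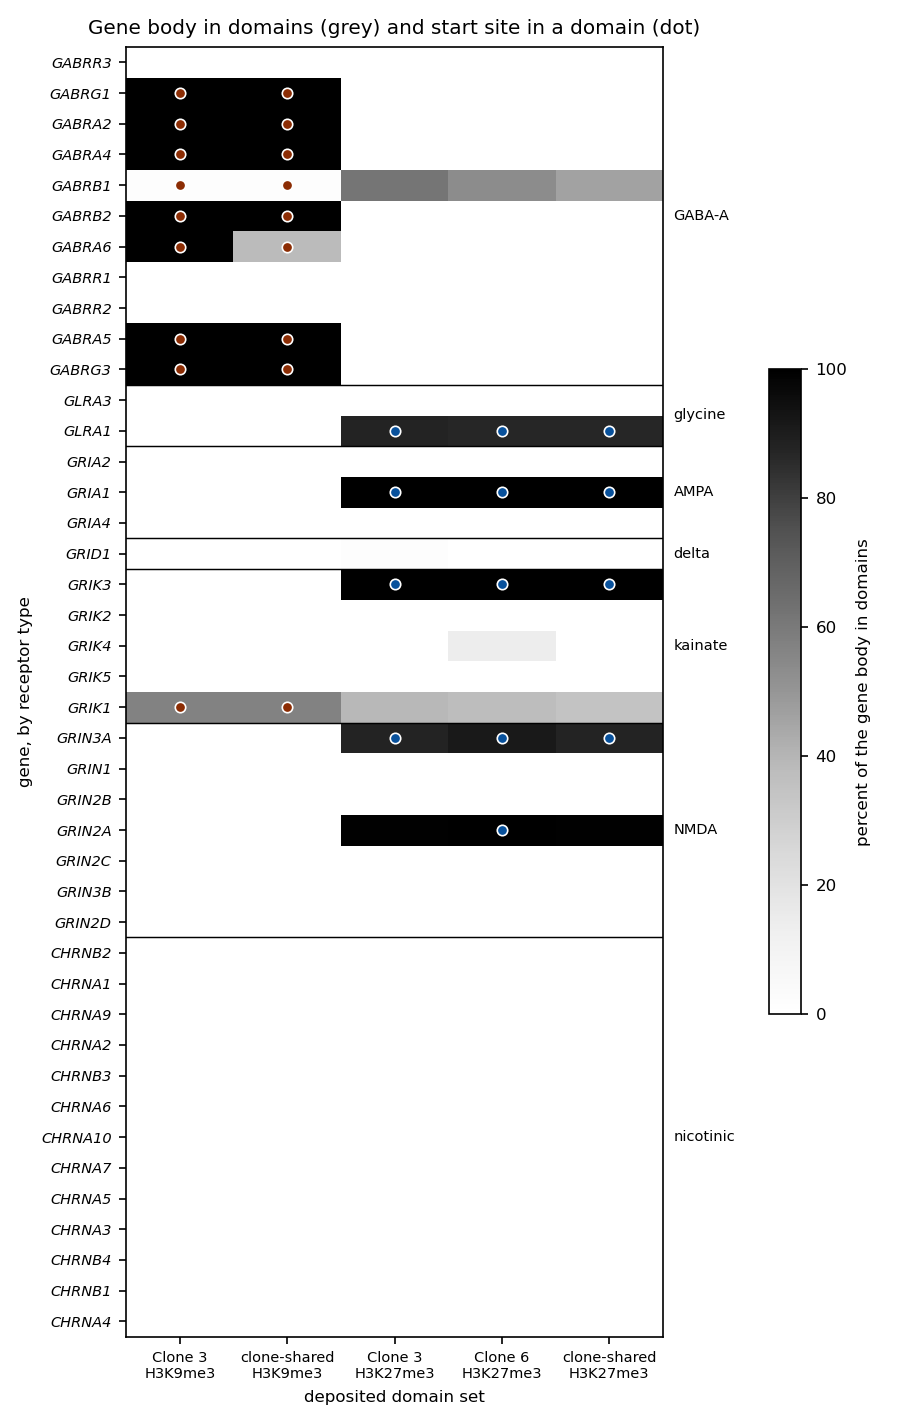
Percent of each gene body inside domains (grey scale, 0 to 100%) for 42 of the 46 genes (rows, by receptor type) in the 5 deposited sets (columns), with a dot where the start site lies in a domain. The H3K9me3 dots sit on 8 GABA-A genes and GRIK1, the H3K27me3 dots on GLRA1 and 4 glutamate receptor genes, and the 13 nicotinic rows are empty.

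**Figure D2:**
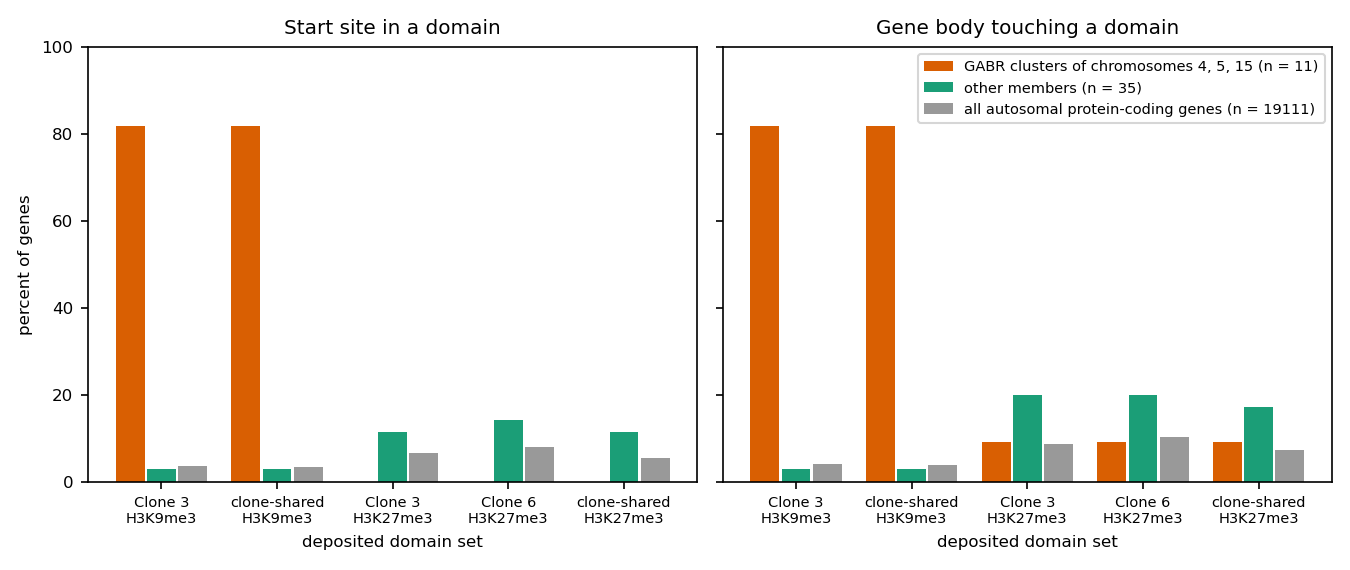
Percent of genes (vertical axis) with the start site in a domain (left) or the gene body touching a domain (right) in each of the 5 sets, for the 11 genes of the GABR clusters on chromosomes 4, 5 and 15, the other 35 members and all 19111 genes. For H3K9me3 start sites these clusters reach 81.8% and the other members, which include the 2 genes of the chromosome 6 cluster, 2.86%. For H3K27me3 start sites the clusters are at 0%, against 6.49% of all genes in Clone 3 and 7.98% in Clone 6.

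The GABR cluster of chromosome 4 was split between the marks. It holds the genes of the γ1, α2, α4 and β1 subunits, of which α4 is known for extrasynaptic receptors. One H3K9me3 domain of Clone 3, chr4:44930001-47002000 (2072 kb), contained the start sites of all 4 genes and that of COX7B2 and covered 69.5% of the cluster. It ranked 55 of 567 domains by length, and 88.7% of Clone 3 H3K9me3 domains had a smaller value for the lower of their 2 scores. In the clone-shared set this stretch was 2 domains, chr4:44930001-46836000 (1906 kb) with GABRG1 and GABRA2 and chr4:46854001-47002000 (148 kb) with GABRA4 and GABRB1, and together they covered 68.2% of the cluster.

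GABRG1 (chr4:46035769-46124054), GABRA2 (chr4:46243548-46475230) and GABRA4 (chr4:46918900-46993581) lay in H3K9me3 with 100% of their bodies in both sets. GABRB1 (chr4:46993723-47426447) was in the domain with its 5′ end alone, 8.28 kb or 1.91% of its body. The starts of GABRA4 and GABRB1 were 8.42 kb and 8.28 kb from the right edge of the domain, and the canonical start of GABRB1 was outside it. The rest of GABRB1 was partly in H3K27me3. In Clone 3 there were 3 domains, chr4:47128001-47237000, chr4:47263001-47295000 and chr4:47301001-47435000, which covered 61.6% of the gene. In Clone 6 there was 1, chr4:47196001-47428000, which covered 53.3%. Bases shared by both clones made up 45.9% of GABRB1. The distance from the H3K9me3 edge to the first H3K27me3 domain was 126 kb with the Clone 3 set and 194 kb with the Clone 6 set. GABRB1 thus had H3K9me3 at the 5′ end of its longest form and H3K27me3 over its 3′ part, with no domain between them.

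In the cluster of chromosome 5, GABRB2 and GABRA6 lay in H3K9me3. GABRB2 encodes a widely used β subunit of the adult brain, and α6 is known from cerebellar granule cells. The Clone 3 H3K9me3 domain chr5:161076001-161796000 (720 kb, rank 146 of 567 by length) contained the starts and all of the bodies of GABRB2 (chr5:161288429-161549044) and GABRA6 (chr5:161547063-161702593). The 5′ ends of these genes overlap on opposite strands. The clone-shared domain, chr5:161124001-161606000 (482 kb), kept all of GABRB2 and 37.9% of GABRA6. Its right edge lay 190 kb to the left of the Clone 3 edge, and the canonical start of GABRA6 fell between the 2 edges.

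Neither gene touched an H3K27me3 domain. The nearest H3K27me3 domain was 615 kb from the start of GABRB2 and 613 kb from that of GABRA6 in Clone 3, and 763 kb and 761 kb away in Clone 6.

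In the cluster of chromosome 15, GABRA5 (chr15:26866911-26949208) and GABRG3 (chr15:26971181-27541984) shared an H3K9me3 domain. They encode the α5 and γ3 subunits, of which α5 is known from the hippocampus. The domain, chr15:25520001-27866000 (2346 kb, rank 44 of 567 by length), had the same edges in Clone 3 and in the clone-shared set. It covered 100% of both gene bodies, and the start site of ATP10A also lay in it. The lower of its scores was above that of 96.1% of Clone 3 H3K9me3 domains. The nearest H3K27me3 domain was 3300 kb from the start of GABRA5 in Clone 3 and 3240 kb in Clone 6.

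GABRR1 (chr6:89177504-89231278) and GABRR2 (chr6:89254464-89315299), neighbours on chromosome 6 that encode ρ subunits known from the retina, were outside all domains. Their starts were 624 kb and 708 kb from Clone 3 H3K27me3 and 17200 kb and 17300 kb from Clone 3 H3K9me3. GABRR3 (chr3:97985102-98035315), the third ρ gene and the single GABA-A member outside a cluster, was also in no domain, at 346 kb from H3K27me3 in Clone 3 and 231 kb in Clone 6.

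**Figure D3:**
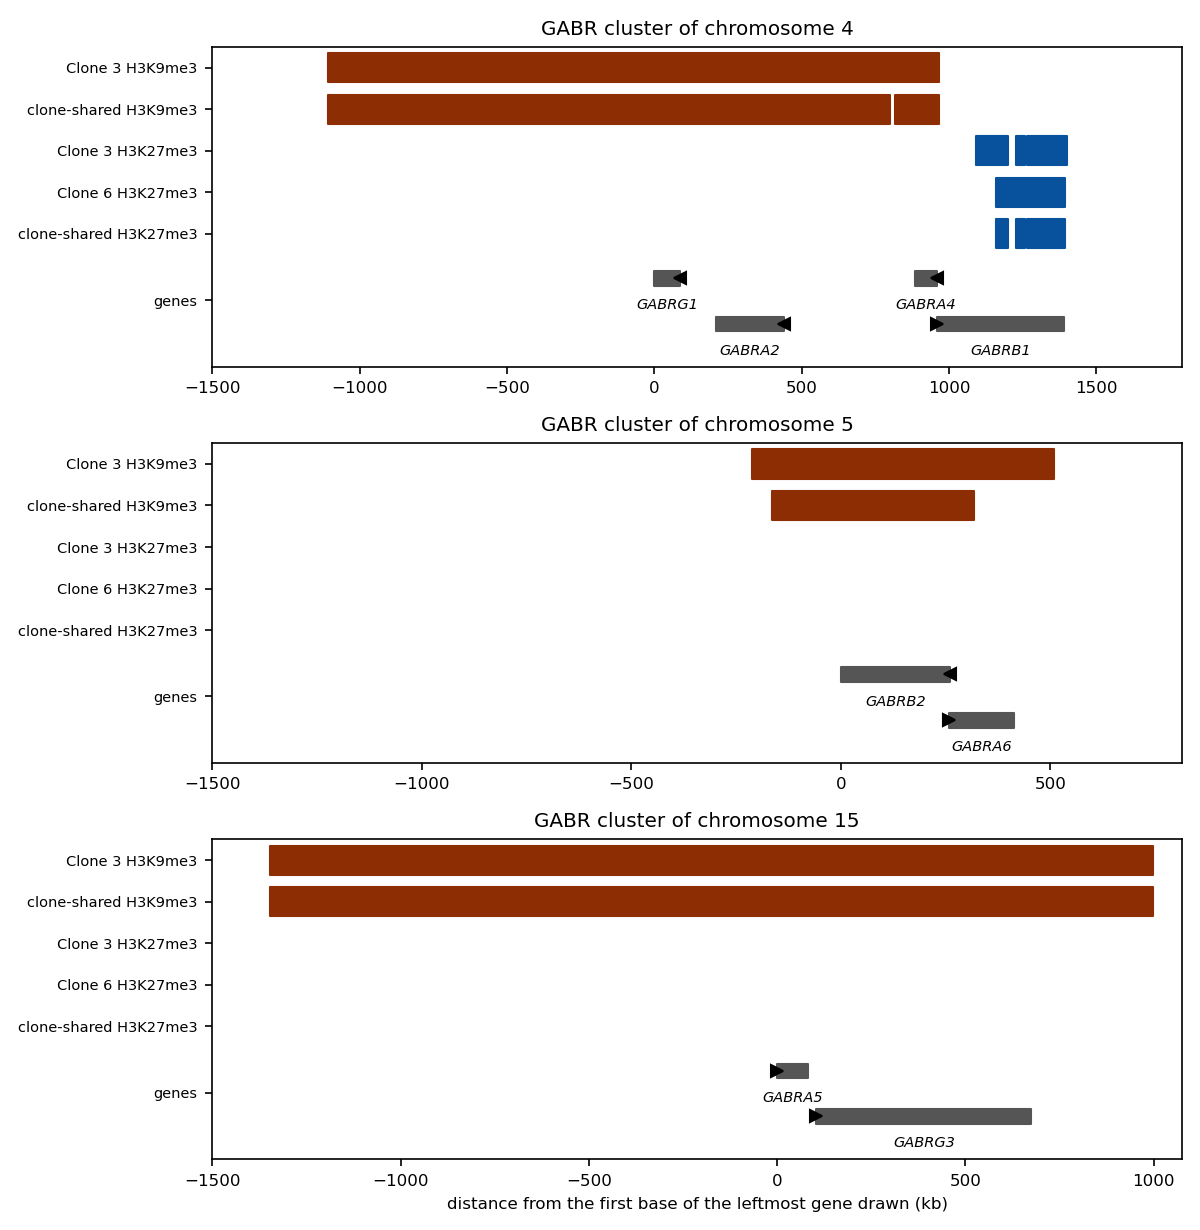
Domains of the 5 sets (brown, H3K9me3; blue, H3K27me3) and genes (grey bars, with an arrowhead at the start site in the direction of transcription) for 8 of the 11 genes in the GABR clusters of chromosomes 4, 5 and 15, against the distance in kb from the leftmost gene drawn. In Clone 3, H3K9me3 covers 100% of each gene drawn except GABRB1 (1.91%), and H3K27me3 appears over GABRB1 alone.

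The glycine receptor genes differed. GLRA1 (chr5:151822513-151924851), which encodes the α1 subunit of spinal cord and brainstem and is mutated in hyperekplexia, had its start in H3K27me3 in both clones. The Clone 3 domain, chr5:151835001-152191000, held 87.8% of the gene, and the Clone 6 domain, chr5:151836001-152572000, held 86.8% and also the start of NMUR2. The left edges were 1 kb apart and the right edges 381 kb apart. GLRA3, the α3 subunit of the dorsal horn, was in no domain, at 614 kb from H3K27me3 in Clone 3 and 6660 kb in Clone 6.

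Of the AMPA receptor genes, GRIA1 (chr5:153489615-153813869) lay wholly in H3K27me3 in both clones, in chr5:153454001-153940000 in Clone 3 and chr5:153454001-153984000 in Clone 6, with the same left edge and right edges 44 kb apart. It encodes GluA1, a subunit moved into synapses in long-term potentiation. GRIA2, whose edited product makes the receptor impermeable to calcium, was in no domain and was the member farthest from H3K27me3, at 10100 kb in Clone 3. GRIA4 was 1750 kb from H3K27me3 in Clone 3 and 4920 kb in Clone 6.

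Of the delta receptor genes, GRID1 is 767 kb long, and its start was 757 kb from H3K27me3 in Clone 3 and 2600 kb from H3K9me3. The last 1.36% of GRID1 lay in a Clone 3 H3K27me3 domain, chr10:85144001-85610000, and no part of GRID1 was in a domain of the other 4 sets.

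The kainate receptor genes included 1 start in each mark. GRIK3 (chr1:36795527-37034515) lay wholly in H3K27me3 in both clones, in chr1:36584001-37434000 (850 kb) in Clone 3 and chr1:36530001-37452000 (922 kb) in Clone 6. These ranked 70 of 2600 and 59 of 1959 domains by length, and GRIK3 was the only protein-coding gene on an autosome with its start in either. GRIK1 (chr21:29536933-29940033) had its start and 56.8% of its body in H3K9me3, in chr21:29711001-30840000 (1129 kb), and this domain was the same in both H3K9me3 sets. It also contained the starts of 33 other genes, of which 31 were keratin-associated protein genes (KRTAP) and 2 were claudin genes. The 3′ part of GRIK1 was in H3K27me3, with 38.9% of the gene in chr21:29540001-29697000 in Clone 3 and 37.2% in chr21:29558001-29708000 in Clone 6. The gap between the marks was 14 kb with the Clone 3 set and 3 kb with the Clone 6 set, which is narrower than the gap in GABRB1.

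Of the other kainate genes, GRIK4 had 14.0% of its body in 2 Clone 6 H3K27me3 domains of 42 kb and 50 kb. These were small and low scoring, with 1.79% and 9.39% of Clone 6 domains having a smaller value for the lower score, and there was no domain over GRIK4 in Clone 3. GRIK5 was 63.8 kb from H3K27me3 in Clone 3 and 51.8 kb in Clone 6. GRIK2, 1119 kb long, was 1700 kb from H3K27me3 in Clone 3 and, of all members, the farthest from Clone 3 H3K9me3 (28900 kb).

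Among NMDA receptor genes, GRIN3A (chr9:101569352-101738647), whose subunit lowers the calcium permeability of the receptor, had its start and 87.8% of its body in Clone 3 H3K27me3, chr9:101590001-101799000. In Clone 6 the domain chr9:101584001-101798000 held 91.3% of the gene. Its edges differed between clones by 6 kb and 1 kb, and PPP3R2, which lies within GRIN3A, shared the domain. GRIN2A (chr16:9753404-10182928), the GluN2A subunit of mature synapses, was the single member whose start site differed between the clones. The Clone 6 domain chr16:9154001-10250000 (1096 kb, rank 34 of 1959 by length) extended 67.1 kb past the start and held 100% of the gene. The Clone 3 domain chr16:9173001-10181000 (1008 kb, rank 39 of 2600) ended 1.93 kb short of the start and held 99.6% of the gene. The call for GRIN2A therefore rested on 1.93 kb, with domain edges given in whole kb, and allowing 5 kb around the start placed it in H3K27me3 in both clones.

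GRIN1, the obligatory subunit of NMDA receptors, was in no domain, at 721 kb from H3K27me3 in Clone 3 and 712 kb in Clone 6. GRIN2B was 1010 kb away in both clones and GRIN2C 134 kb away in both. GRIN2D was 2110 kb away in Clone 3 and 920 kb in Clone 6, and GRIN3B was 2850 kb and 2220 kb away. All 5 also lay outside H3K9me3, at 1820 kb (GRIN3B) to 20100 kb (GRIN2C) in Clone 3.

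All 13 nicotinic receptor genes were outside the domains of the 5 sets, with start and body, as were 87.4% of all genes by start and 84.6% by body, so a count of 13 of 13 is near the share of all genes. For the muscle subunits, Clone 3 H3K27me3 was 721 kb from the start of CHRNA1 and 602 kb from that of CHRNB1. The main subunits of brain receptors, CHRNA4 and CHRNB2, were 1490 kb and 1100 kb away in Clone 3, and 202 kb and 164 kb in Clone 6. CHRNA7, which forms receptors of 1 kind of subunit, was 1030 kb from the mark. The ganglionic genes CHRNA3, CHRNA5 and CHRNB4 are neighbours on chromosome 15 and were 449 kb, 504 kb and 342 kb away. CHRNA6 and CHRNB3, neighbours on chromosome 8 and known from dopaminergic neurons, were 529 kb and 628 kb away, and CHRNA2 was 210 kb away. CHRNA9 and CHRNA10, which form the receptor of cochlear hair cells, were 1400 kb and 81.4 kb away, so CHRNA10 was the nicotinic gene nearest to Clone 3 H3K27me3. From Clone 3 H3K9me3 the nicotinic genes were between 713 kb (CHRNA6) and 17200 kb (CHRNA10).

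**Figure D4:**
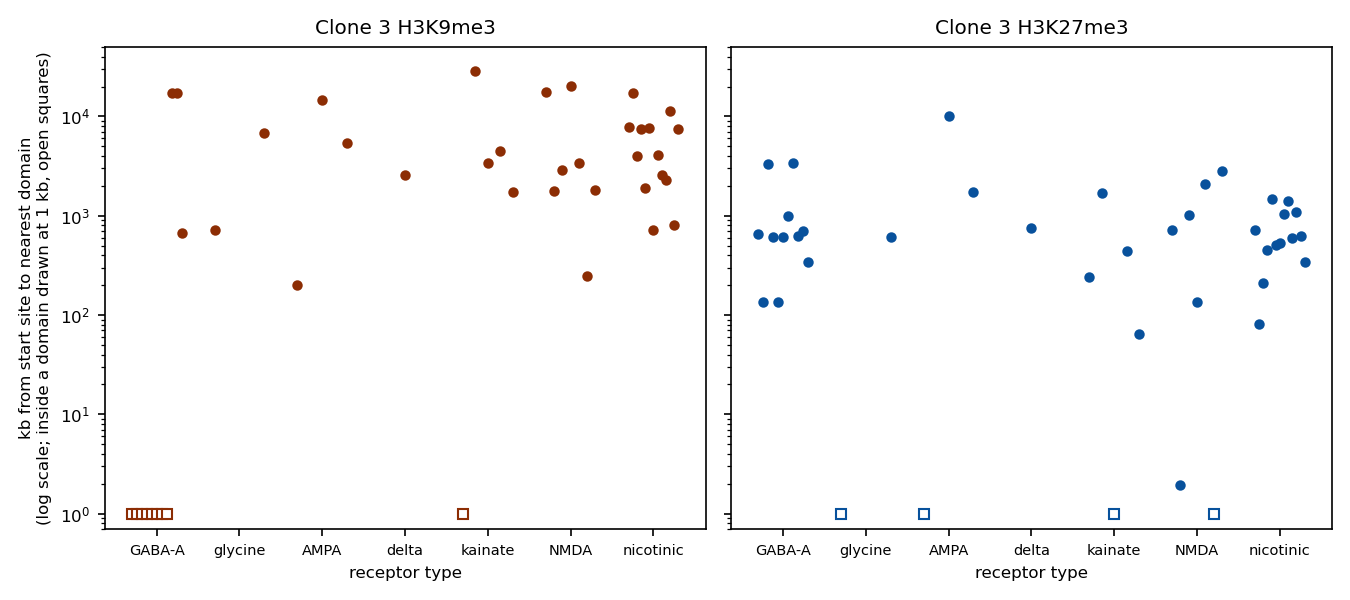
Distance in kb (log axis) from the start site of 42 of the 46 members to the nearest Clone 3 domain of H3K9me3 (left) or H3K27me3 (right), by receptor type, with starts inside a domain drawn at 1 kb as open squares. Over all members outside, the median distance is 3720 kb for H3K9me3 and 680 kb for H3K27me3, and GRIN2A is the one nearest to H3K27me3, at 1.93 kb.

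The members were long genes, with a median length of 95.3 kb against 27.9 kb for all genes, and the shortest was CHRNA10 (5.8 kb). Of 12 members of at least 300 kb, 4 had a start in Clone 3 H3K9me3, against 13.8% of 789 genes, and 1 had a start in Clone 3 H3K27me3, against 16.7%. Of 11 members from 100 to 300 kb, 3 had a start in H3K9me3, against 3.13%, and 3 in H3K27me3, against 8.09%. Of 16 members from 25 to 100 kb, 3 had a start in H3K9me3, against 2.68%, and none in H3K27me3, against 4.07%. None of the 7 members shorter than 25 kb had a start in a domain of either mark, where 3.32% and 6.89% of all genes did. The share of all genes with a start in a domain was higher at 300 kb and above than in each shorter class for both marks, and the part of length in the counts of members was not tested.

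CpG density was measured in 1 kb centred on the start site. The members had a median of 39.5 CpGs per kb, against 58.9 for all genes. The start of the Ensembl canonical transcript differed from the 5′ end of the gene in 26 of 46 members, by more than 10 kb in 13, and with it the medians were 51.4 and 66.9. The 10 members in H3K9me3 ranged from 7.99 (GABRA2) to 103 (GABRG3), with a median of 50.0. The median of all genes with a start in that mark was 45.0, and at the canonical start these medians were 60.9 and 50.0. The canonical start moved single genes far, with GABRA2 at 77.9 there and GRIA1, below, at 23. The 4 members in H3K27me3 in both clones had 142 (GRIK3), 64.9 (GRIN3A), 52.9 (GLRA1) and 4.0 (GRIA1), with a median of 58.9 against 17.0 for all genes in that state. GRIN2A had 96.9. The 31 members in no domain had a median of 29.0, against 61.9 for all genes in no domain, and at the canonical start these medians were 49.0 and 68.9. The ranges of members with and without domains overlapped, and starts with over 100 CpGs per kb were found in H3K9me3 (GABRG3), in H3K27me3 (GRIK3) and in no domain (GRIK4, 138, and GRID1, 127).

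**Figure D5:**
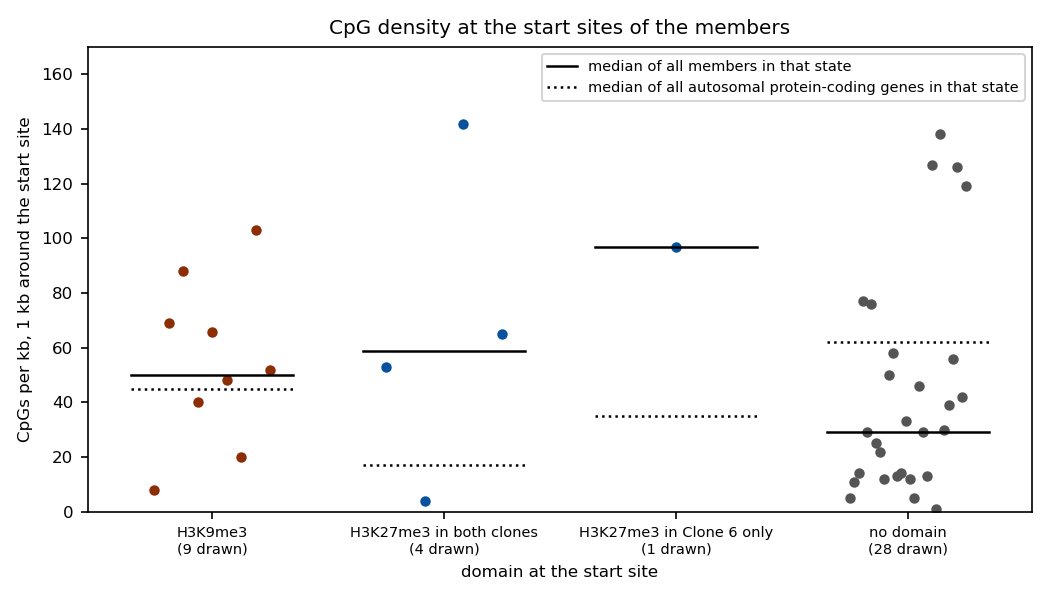
CpGs per kb in 1 kb around the start site of 42 of the 46 members (points), by the domain at the start site, with the median of all members in that state (solid line) and of all genes in the same state (dotted line). The members in H3K9me3 have a median of 50.0 against 45.0 for all genes (60.9 against 50.0 at the canonical start). Those in no domain have 29.0 against 61.9 (49.0 against 68.9 at the canonical start).

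The left arm of the RE1 element, TTCAGCACC, which belongs to the recognition sequence of the neuronal repressor REST, was searched on both strands within 1 kb on either side of each start site. It was present at 7 of 46 members (15.2%) and at 521 of 19111 genes (2.73%). Among these, the centre of the match was 180 bp after the start in CHRNB2, 307 bp in GLRA3, 93 bp in GLRA1, 918 bp in GRIN1 and 287 bp in CHRNA10. Of these 7 start sites, that of GLRA1 lay in a domain, of H3K27me3, and the other 6 lay in none. Of all genes, 87.4% had a start in no domain of any set, so this count is near that share. The match is of letters and does not show binding.

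Genes that act with these receptors were counted from lists by role. Other subunits of the same receptors (GABRD, GABRP, GLRB, CHRND, CHRNE and CHRNG) had no start or body in any set (0 of 6), as did 87.4% of all genes by start and 84.6% by body. Of 13 other ligand-gated channels, which are serotonin-gated, zinc-activated and ATP-gated channels, HTR3A had its start in H3K27me3 in both clones and HTR3B in Clone 6 (7.69% in Clone 3 and 15.4% in Clone 6, against 6.49% and 7.98% of all genes), and none was in H3K9me3, against 3.50% in Clone 3. Of 15 metabotropic receptors for the same transmitters, 3 had a start in H3K9me3 in both sets (20.0%, against 3.50% of all genes in Clone 3), the muscarinic receptors CHRM2 and CHRM3 and the glutamate receptor GRM6, and 2 had a start in H3K27me3 in each clone (13.3%, against 6.49% in Clone 3 and 7.98% in Clone 6), of which GRM8 was in both. Of 31 auxiliary and anchoring proteins, NETO1, an auxiliary subunit of kainate receptors, and SHISA6, one of AMPA receptors, had starts in H3K9me3 (6.45%, against 3.50% of all genes in Clone 3), and 5 had starts in H3K27me3 in Clone 3 (16.1%, against 6.49%) and 7 in Clone 6 (22.6%, against 7.98%). CACNG2, CACNG3, GRIP1 and RIC3 were among those in both clones.

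Of 24 genes for the synthesis and transport of the transmitters, 10 had a start in H3K27me3 in Clone 3, in Clone 6 and in the clone-shared set alike (41.7%, against 6.49%, 7.98% and 5.35% of all genes), and none in H3K9me3, which is near the 3.50% of all genes in Clone 3. They included CHAT, which makes acetylcholine, GAD2, which makes GABA, and SLC17A6 and SLC18A3, the vesicular transporters of glutamate and acetylcholine. SLC18A3 lies within CHAT, so that pair is not separate observations.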

How the data were processed

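ChIP-seq of H3K9me3 and H3K27me3 was analysed from the domain sets deposited by the authors. According to the methods and the submitters' processing notes, the authors trimmed reads with Trim Galore 0.5.0, aligned them to hg38 with Bowtie2 2.3.5, removed duplicates with samblaster and called broad domains with the default settings of Enriched Domain Detector. Domains shared by the replicates, or by both clones, were kept. Replicates were therefore already merged, and depth per library cannot be read from the sets. Values deposited for each domain were its coordinates, in whole kb, and in the clone sets 2 scores of the authors, whose scale and replicate are not named. The lower of the 2 scores of a domain was used, and only to rank domains within a set. Taking the lower one sets both scores side by side, although their scale is not named.

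A start site was the 5′ end of the gene in GENCODE 44, and it was in a domain when that base was. A body was in a domain when at least 1 base was. No domain ran past a chromosome end by 1 kb or more. Shares are descriptions beside those of all 19111 genes, with no test, since genes are not replicates. Members were named except 4, which are not reported here one by one though they are in the counts, and of each other list at most 4 genes per mark in alphabetical order among those in a clone-shared domain, with the neighbours in a member's domain, HTR3B being named beyond this rule after its values were seen. Marker genes and other receptor subunits outside all domains were named to say what their lists hold. The members and lists were chosen with earlier results of these data known. The placement of genes was tested on simulated intervals. Python 3.11.15, numpy 2.4.6, pandas 2.3.3 and matplotlib 3.10.9 were used.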

Additional observations from a re-analysis of the deposited data

How the results depend on the processing

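The counts of members in domains were recomputed under 57 alternatives, and 52 stayed within 1.5 times the reported count. Some counts of start sites could not move. No gene of the 3 clusters had a start in H3K27me3, and each member with a start in that mark was at least 102 kb long. Each domain with a member's start was at least 148 kb long. The clone-shared sets also derive from the clone sets. Without the GABR clusters of chromosomes 4, 5 and 15, 1 member (GRIK1) remained in H3K9me3, by start site and by body, in the Clone 3 and in the clone-shared set. With a domain allowed within 5 kb of the start, 0 members differed between clones, since GRIN2A entered the Clone 3 set. With the canonical start, GABRB1 left the Clone 3 H3K9me3 count (9), and GABRB1 and GABRA6 left the clone-shared count (8). Domains of at least 100 kb, and in the clone sets the upper 50% by score, left the counts of start sites as reported. Among genes of at least 100 kb, 7 members had a start in Clone 3 H3K9me3, against 5.53% of all genes of that length. No paired analysis was possible because the deposited sets merge the replicates, and no replicate could be left out for the same reason. Domains carry no depth, so a gene outside a domain may hold the mark below the threshold of the caller.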
